A study of Mus musculus with 8 samples.

Results

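The genes described here are the antioxidant, glutathione and NRF2 genes of the mouse heart: glutathione transferases, the enzymes that make, recycle and spend glutathione and thioredoxin, superoxide dismutases, catalase, and the NRF2 pathway. They were chosen by name, with earlier results of these data known. Probe sets were used whose platform annotation gives 1 of 38 listed symbols and no other gene. Of the 38 genes 35 were measured among 18193 genes. Hearts came from female mice with a conditional gene deletion carried by the MCK line (KO) and from wild-type littermates (WT), at 4 and at 10 weeks of age, with 2 mice per genotype and age and 1 Affymetrix array per heart. MCK is muscle creatine kinase, whose promoter is active in the muscle cells of heart and skeleton and not in the other cells of the heart; the labels do not give the alleles of the WT mice. Any difference of litter between the ages cannot be told apart from age in a comparison between ages.

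Cells remove superoxide with superoxide dismutases, and the hydrogen peroxide that results with catalase, glutathione peroxidases and peroxiredoxins. Glutathione and thioredoxin supply the electrons and are reduced again by glutathione reductase and the thioredoxin reductases, while glutathione transferases couple glutathione to lipid peroxidation products and foreign compounds. The transcription factor NRF2, encoded by Nfe2l2, is held down by Keap1 and, when freed, binds antioxidant response elements in the promoters of many of these genes.

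Levels are given as log2 of the deposited intensity of a gene's brightest probe set, so a difference of 1 is a factor of 2, and levels of different genes are not compared. A gene was called higher or lower when its Benjamini-Hochberg adjusted p over all genes was under 0.05 in limma, a linear model that borrows information on variance across genes. In comparisons of KO with WT, rose and fell stand for higher and lower in KO than in WT hearts of the same age. Errors are standard errors of the difference between means of 2 hearts each. The p-values set a difference against the spread between mice within the 4 groups, pooled over the groups and moderated across genes. With 2 mice per group the precision is limited.

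A principal component analysis of the 35 genes separated the KO hearts of 10 weeks from the rest. Its first component carried 73.7% of the variance and put the 10-week KO hearts at 3.05 and 3.59, the other 6 lying between -2.52 and 0.17. Replicate 1 of the 10-week WT hearts lay at the low end (-2.52). It was also the array with the highest summed intensity of 6 liver markers (5094, the others from 352 to 4915) and of 6 kidney markers (1033, the others from 178 to 374). In the same analysis of all genes, this array lay at -43.3 on the second component and the others from -4.18 to 13.9. The first component of all genes also set the 10-week KO hearts (46.7 and 39.1) apart from the other 6 (-24.0 to -6.09), so this split was not particular to the 35 genes. The 8 cardiomyocyte markers all read high (log2 8.56 to 14.34 on every array). At 10 weeks 4 of these 8 were lower in KO, 5 of 6 fibroblast markers and 4 of 7 macrophage markers were higher, and 1 of 6 kidney and 1 of 4 erythrocyte markers were lower. In bulk tissue, fewer cells of a type and less RNA per cell cannot be told apart.

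At 10 weeks 9 of the 14 glutathione transferases were lower in KO hearts, and 1 transferase and 4 genes of other roles were higher. Of the 35 measured genes, 5 rose (Srxn1, Txnrd1, Gclc, Gsto1 and Nqo1) and 11 fell (Gstk1, Mgst3, Gsta3, Gstp1, Gstm2, Gsta4, Gstt1, Gstm1, Prdx2, Prdx3 and Gstz1), and 19 did not pass. These 16 are 45.7% of the measured genes, against 12.1% of all genes (5.19% higher and 6.89% lower). The genes were chosen with earlier results of these data known, so the share is a description and not a test. A call with at least a 2-fold difference was made in 5 of the 35, against 4.24% of all genes. In 10 of the 35 both KO hearts lay above both WT hearts (23.7% of all genes) and in 19 both lay below (23.5%). The differences ran from -2.93 to 1.21 on the log2 scale with a median of -0.21 (all genes, 0.00). At 4 weeks 0 of the 35 passed in limma, against 0.0275% of all genes. An unadjusted limma p under 0.05 was seen in 1 of the 35 and in 679 of all 18193 genes at 4 weeks. Both KO hearts lay above both WT hearts in 5 of the 35 at that age (19.4% of all genes) and below in 4 (17.5%).

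**Figure D1:**
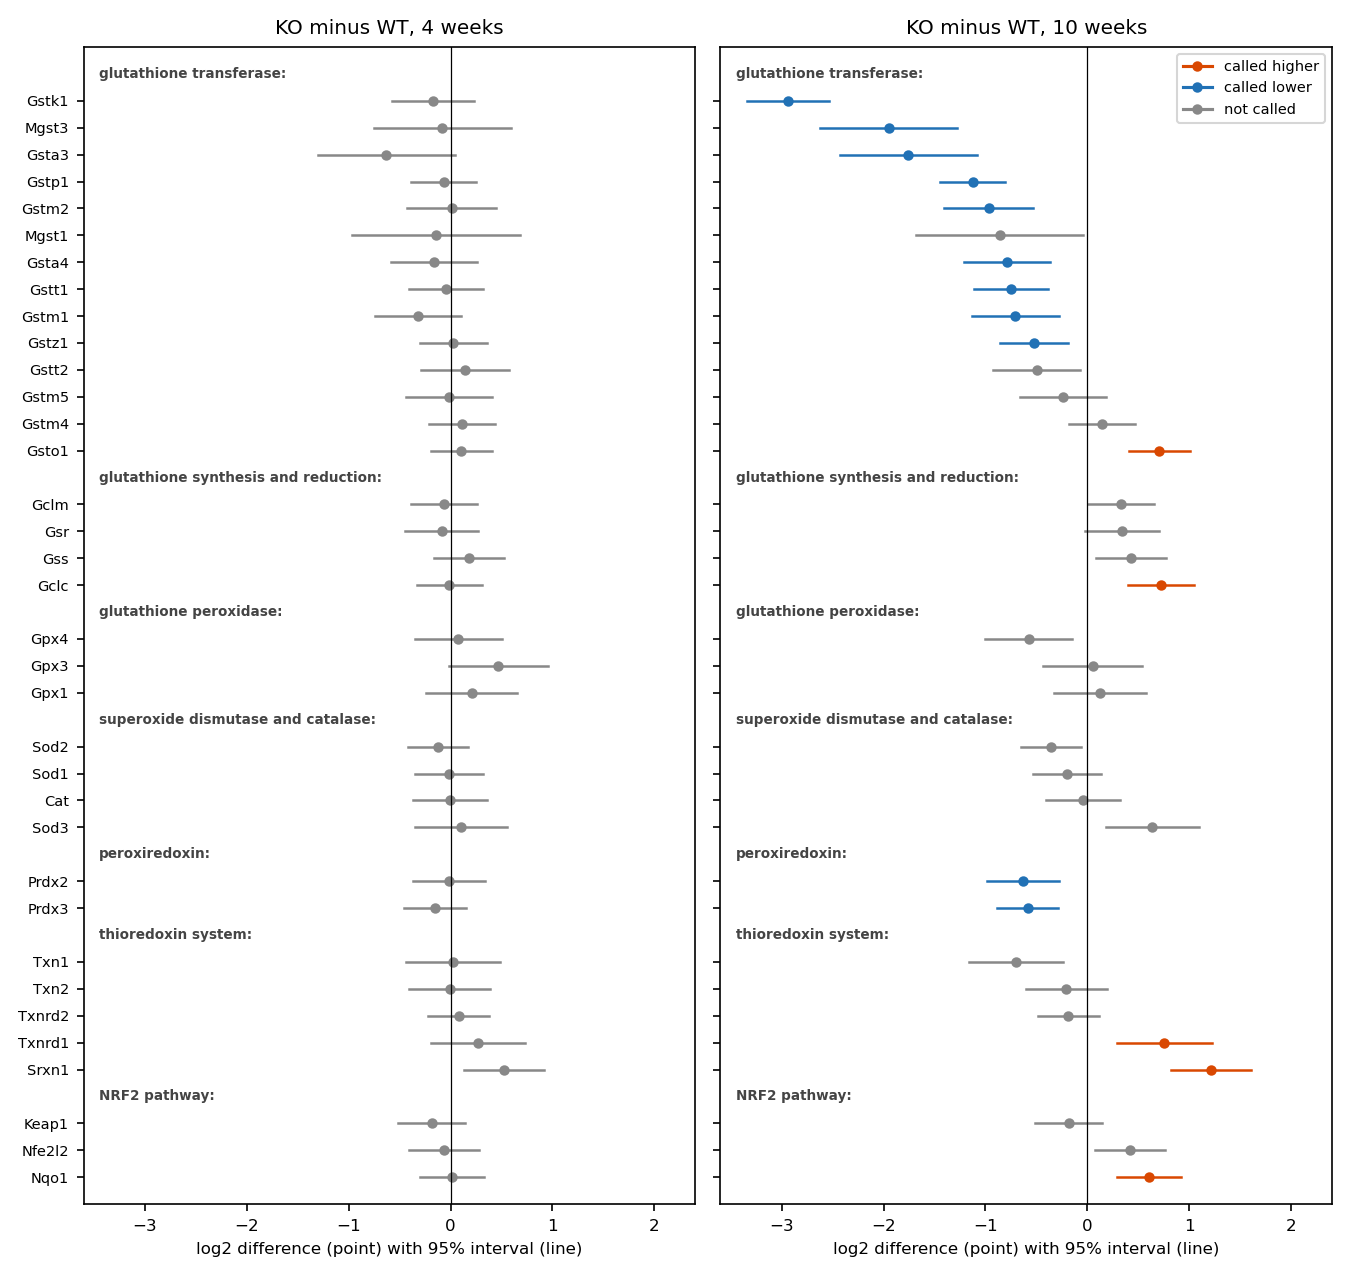
KO minus WT log2 difference (points) with its 95% interval (lines) for the 35 measured genes at 4 weeks (left) and 10 weeks (right), grouped by role; orange and blue mark genes called higher and lower. At 4 weeks the points lie between -0.63 and 0.52 and none is called, and at 10 weeks 5 are called higher and 11 lower.

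The count of 16 depended on single hearts. It was 6 without 10-week KO replicate 2, 9 without 10-week KO replicate 1, 9 without either 4-week WT heart and 11 without 10-week WT replicate 1 (4 higher, 7 lower). Gstk1, Mgst3, Gsta3, Gstp1 and Srxn1 kept their calls in every alternative in which they were tested. Among the other 11, leaving out either 4-week WT heart ended the calls of Gsta4, Gstm1, Gstz1, Nqo1, Prdx2, Prdx3 and Txnrd1, and leaving out either 4-week KO heart those of Gstm1, Prdx2 and Txnrd1, with differences as in the full fit. A fit of the 10-week hearts alone ended the calls of Gclc, Gsta4, Gstm1, Gsto1, Gstz1, Nqo1, Prdx2, Prdx3 and Txnrd1. Repeat quantile normalization ended those of Gsta4, Gstm1 and Prdx2, centring on array medians those of Gstm1, Gstz1 and Txnrd1, and array weights those of Gstm1, Gstz1 and Prdx3. Quantile normalization of the values again gave 6 higher and 8 lower, with Nfe2l2 gained.

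Of the 14 glutathione transferases 9 fell at 10 weeks, 1 rose and 4 did not pass, with a median difference of -0.77. The 10 calls were 5 without 10-week KO replicate 2. The 8 cardiomyocyte markers summed to 93016 and 106529 in 10-week WT hearts and 81835 and 92542 in KO, and their part in these falls was not tested. Gstk1, the kappa-class enzyme of mitochondria and peroxisomes, read log2 10.01 and 9.80 in 4-week WT hearts, 9.57 and 9.89 in 4-week KO, 10.28 and 9.97 in 10-week WT, and 7.02 and 7.36 in 10-week KO. Both 10-week KO hearts lay far below the other 6, which overlapped across genotype and age. The fall was 2.93 ± 0.18 (95% interval -3.33 to -2.53; adjusted p = 2.92e-05), or 7.65-fold lower, the 8th lowest difference of all 18193 genes. At 4 weeks the difference was -0.17 ± 0.18 (adjusted p = 0.999).

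Mgst3, a membrane-bound enzyme with transferase and peroxidase activity, read 12.72 and 11.91 in 10-week WT and 10.69 and 10.04 in 10-week KO. The 4-week hearts read 12.14 and 11.95 (WT) and 11.69 and 12.25 (KO), so the 10-week KO pair was again below all the others. The fall was 1.95 ± 0.30 (adjusted p = 0.00322). The dimmer of the gene's 2 probe sets gave -0.64 ± 0.19 (adjusted p = 0.0825 over all probe sets), and the mean of both -1.29 (adjusted p = 0.0102).

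Gsta3, an alpha-class enzyme that detoxifies electrophiles, read 7.38 and 6.59 in 10-week WT and 5.50 and 4.95 in 10-week KO, a difference of -1.76 ± 0.30 (adjusted p = 0.00522). In 4-week hearts it read 5.90 and 6.25 (WT) and 5.13 and 5.76 (KO). The KO values of the 2 ages overlapped, and the highest value was that of 10-week WT replicate 1. The difference was -1.36 without that heart. Liver markers summed to 5094 and 616 in 10-week WT and 418 and 517 in 10-week KO. At 4 weeks they summed to 1178 and 3254 in WT and 352 and 4915 in KO. Kidney markers summed to 1033 and 299 in 10-week WT and 190 and 200 in 10-week KO. At 4 weeks the kidney sums were 254 and 374 in WT and 204 and 178 in KO. The part of these signals was not tested. The dimmer probe set of Gsta3 gave -1.08 ± 0.24 (adjusted p = 0.0217 over all probe sets). Gsta4, which conjugates the lipid peroxidation product hydroxynonenal, read 9.83 and 9.35 in 10-week WT and 8.97 and 8.64 in 10-week KO. Its difference of -0.79 ± 0.19 (adjusted p = 0.0243) lost its call without 10-week WT replicate 1 (-0.55, adjusted p = 0.0946) or 10-week KO replicate 2 (-0.62, 0.163).

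Gstp1, the pi-class enzyme of the cytosol, read 12.03 and 11.76 in 10-week WT and 10.67 and 10.87 in 10-week KO, against 11.67 and 11.73 (WT) and 11.54 and 11.73 (KO) at 4 weeks. It fell by 1.13 ± 0.14 (adjusted p = 0.00126). A near-identical copy of the gene, Gstp2, is named by no probe set in the annotation used here, so signal from it cannot be told apart. Gstt1, of the theta class, fell by 0.75 ± 0.16 (adjusted p = 0.015), from 8.62 and 8.45 in WT to 7.75 and 7.83 in KO. Its adjusted p was between 0.0506 and 0.0935 without 10-week WT replicate 1 or either 10-week KO heart. Gstz1, which isomerises maleylacetoacetate in tyrosine breakdown, read 6.93 and 6.85 in WT and 6.42 and 6.32 in KO. It fell by 0.52 ± 0.15 at an adjusted p of 0.0494, just inside the threshold, and missed it without any 1 of the 10-week hearts (0.055 to 0.21). The theta-class gene Gstt2 read 6.13 and 6.06 in WT and 5.70 and 5.50 in KO and did not pass (-0.50 ± 0.19, adjusted p = 0.142), nor did the microsomal Mgst1 (-0.86 ± 0.37, adjusted p = 0.188), whose KO hearts were 10.09 and 8.95.

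The mu-class genes form a row of 7 with no other protein-coding gene between them on chromosome 3, in the order Gstm5, Gstm7, Gstm6, Gstm3, Gstm2, Gstm1 and Gstm4 (RefSeq, GRCm38.p6). Gstm2 was lower in KO by 0.97 ± 0.19 at 10 weeks (adjusted p = 0.0112), at 8.66 and 8.67 against 9.82 and 9.44 in WT. Its 4-week hearts read 8.98 and 8.99 (WT) and 8.71 and 9.28 (KO). From 4 to 10 weeks it differed by 0.65 ± 0.19 in WT (limma, adjusted p = 0.215) and by -0.33 ± 0.19 in KO (0.325). The 10-week call of Gstm2 was lost without 10-week KO replicate 1 or 2. Gstm1 fell by 0.71 ± 0.19 (adjusted p = 0.0394), from 10.42 and 10.67 to 9.57 and 10.11, and its 3 further probe sets gave -0.57 to -0.46, none passing singly (adjusted p = 0.052 to 0.0898). The difference of Gstm1 was -0.44 (adjusted p = 0.24) without 10-week KO replicate 1 and -0.58 (0.0995) without 10-week WT replicate 2. Gstm7, from the further list described below, fell by 1.14 ± 0.18 (adjusted p = 0.00407), and by 0.52 (adjusted p = 0.0134) when its probe sets were averaged. Gstm5 (-0.24), Gstm6 (-0.12), Gstm3 (0.10) and Gstm4 (0.15) did not pass, so genes that fell and genes that did not were interleaved along the row. These paralogs are close in sequence, and probe sets can share signal between them.

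Gsto1, the omega-class enzyme that reduces dehydroascorbate and arsenic compounds, was the 1 transferase that rose. It read 10.55 and 10.60 in 10-week WT and 11.13 and 11.42 in 10-week KO, and 10.59 to 10.78 in the 4-week hearts. The rise was 0.71 ± 0.13 (adjusted p = 0.0083), with 0.73 ± 0.13 on its other probe set, and 0.56 (adjusted p = 0.0606) without 10-week KO replicate 2. Both 10-week KO hearts lay above all 6 others. In the same hearts the macrophage markers summed to 7021 and 5853 in KO against 4137 and 3955 in WT, and the fibroblast markers to 18495 and 19005 against 4939 and 7121; their part in the rise was not tested.

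**Figure D2:**
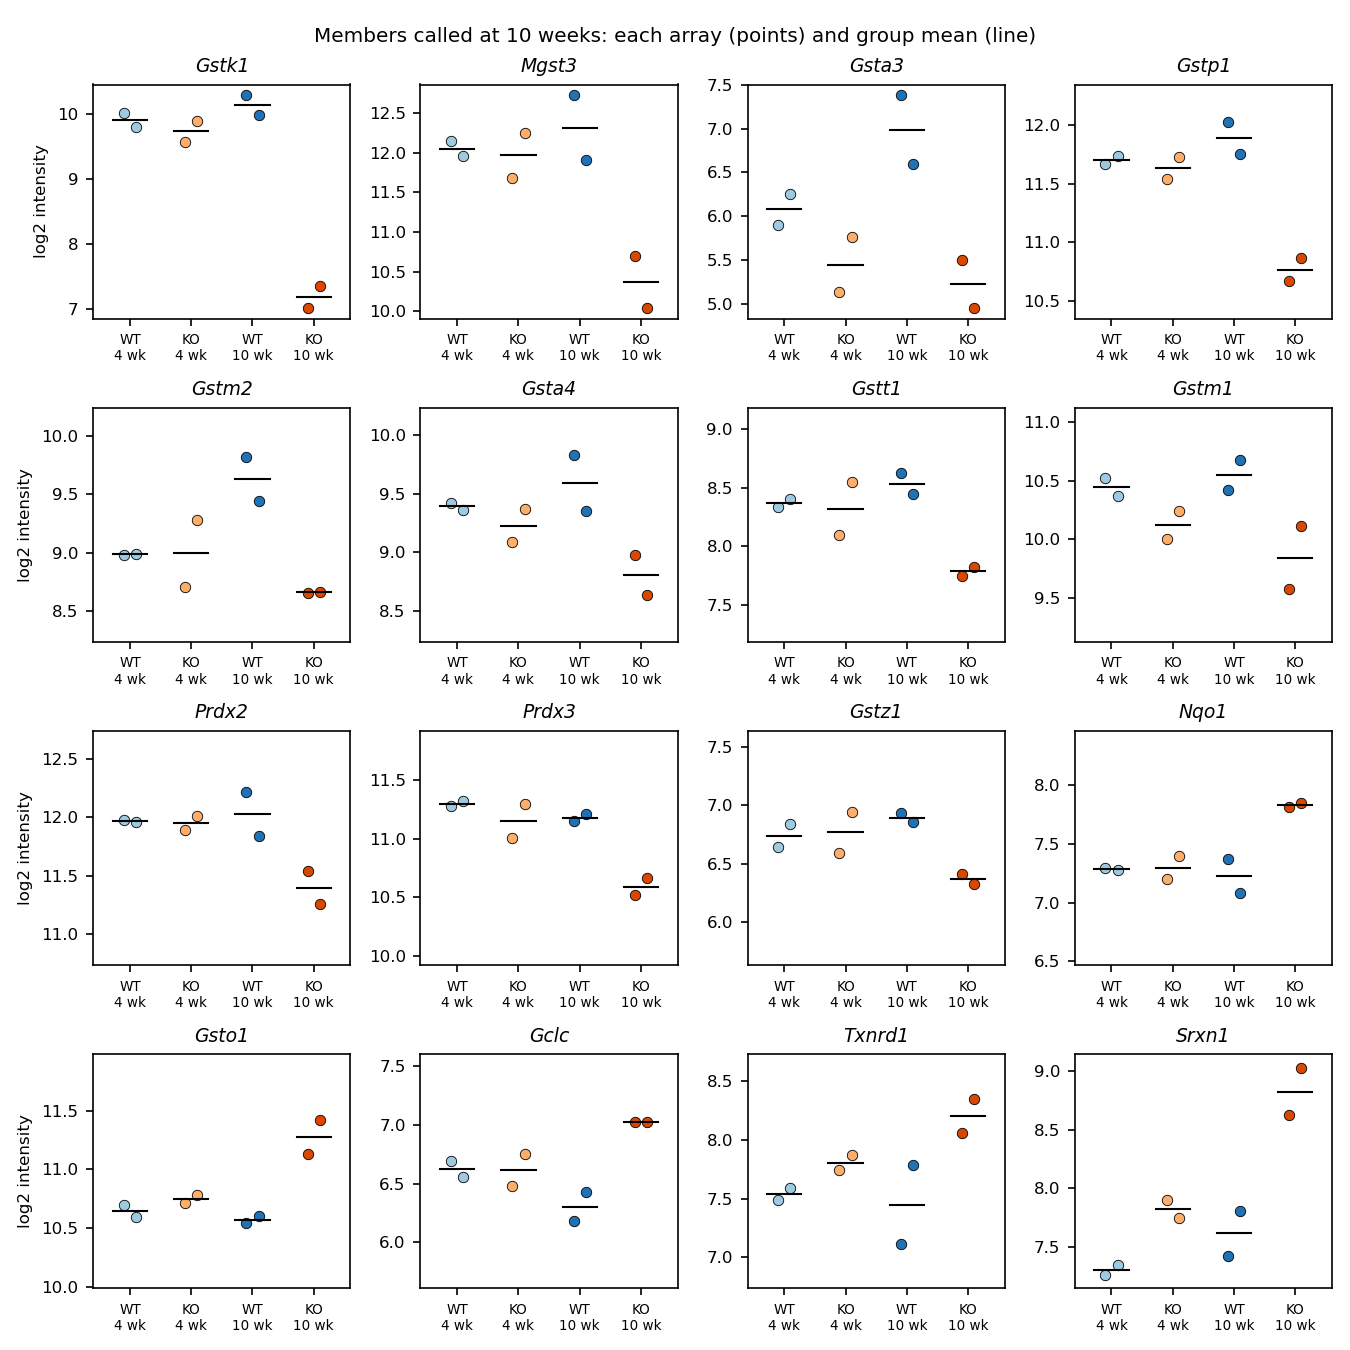
Log2 intensity of the 16 called genes in each of the 8 hearts (points; dark blue and dark orange are WT and KO at 10 weeks, light shades 4 weeks), with a line at each group mean; each panel has its own vertical range, at least 2 log2 units. In Gstk1 the 10-week KO points lie at 7.02 and 7.36 and the other 6 between 9.57 and 10.28, while in Srxn1 the 10-week KO points are highest (8.62 and 9.03).

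The 4 genes of glutathione synthesis and reduction all differed in the positive direction at 10 weeks, and 1 passed on the brightest probe set. Gclc, the catalytic subunit of the enzyme that limits glutathione synthesis, read 6.18 and 6.43 in 10-week WT and 7.02 and 7.03 in KO. The 4-week hearts read 6.70 and 6.56 (WT) and 6.48 and 6.75 (KO). Its rise was 0.72 ± 0.14 (adjusted p = 0.0106), and it missed the threshold without 10-week KO replicate 1 (0.73, adjusted p = 0.0618) or 2 (0.72, 0.0588). Its dimmer probe set gave 0.38 ± 0.13 and did not pass (adjusted p = 0.128 over all probe sets).

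The remaining 3 were smaller. Gclm, the regulatory subunit of the same enzyme, was at 0.33 ± 0.14 (adjusted p = 0.205), Gss, glutathione synthetase, at 0.43 ± 0.15 (0.114), and Gsr, glutathione reductase, at 0.34 ± 0.16 (0.24). In each of them both KO hearts were above both WT hearts, as in 23.7% of all genes. The dimmer probe set of Gss gave 0.55 ± 0.13 (adjusted p = 0.0355 over all probe sets, of which 8.08% passed), and that of Gclm 0.52 ± 0.14 (0.0505). Gclm and Gss both passed when their probe sets were averaged.

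None of the 3 glutathione peroxidases passed at 10 weeks. Gpx4, which reduces lipid peroxides in membranes, read 12.97 and 12.34 in WT and 12.15 and 12.01 in KO (-0.58 ± 0.19, adjusted p = 0.0886). It did pass with the replicate number as a block. Its WT heart of 12.97 was replicate 1, above all the other hearts. Gpx1, the abundant cytosolic enzyme, was at 0.12 ± 0.20 (95% interval -0.33 to 0.57), and Gpx3, the secreted enzyme, at 0.052 ± 0.22 (-0.43 to 0.54).

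Of the superoxide dismutases and catalase none passed on the brightest probe set. Cat read 9.60 and 9.92 in WT and 9.62 and 9.81 in KO (-0.043 ± 0.16, 95% interval -0.40 to 0.32). Sod1, of the cytosol, was at -0.20 ± 0.15 (adjusted p = 0.488) and the extracellular Sod3 at 0.64 ± 0.20 (0.0775).

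Sod2, the manganese enzyme of mitochondria, depended on the probe set. The brightest read 11.95 and 12.12 in WT and 11.59 and 11.78 in KO, a difference of -0.36 ± 0.13 (adjusted p = 0.122). Tested singly over all probe sets, its 3 others fell by 0.57 ± 0.13, 1.50 ± 0.16 and 0.59 ± 0.14 (adjusted p = 0.0219, 0.000629 and 0.0318), and the mean of the 4 passed as well.

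**Figure D3:**
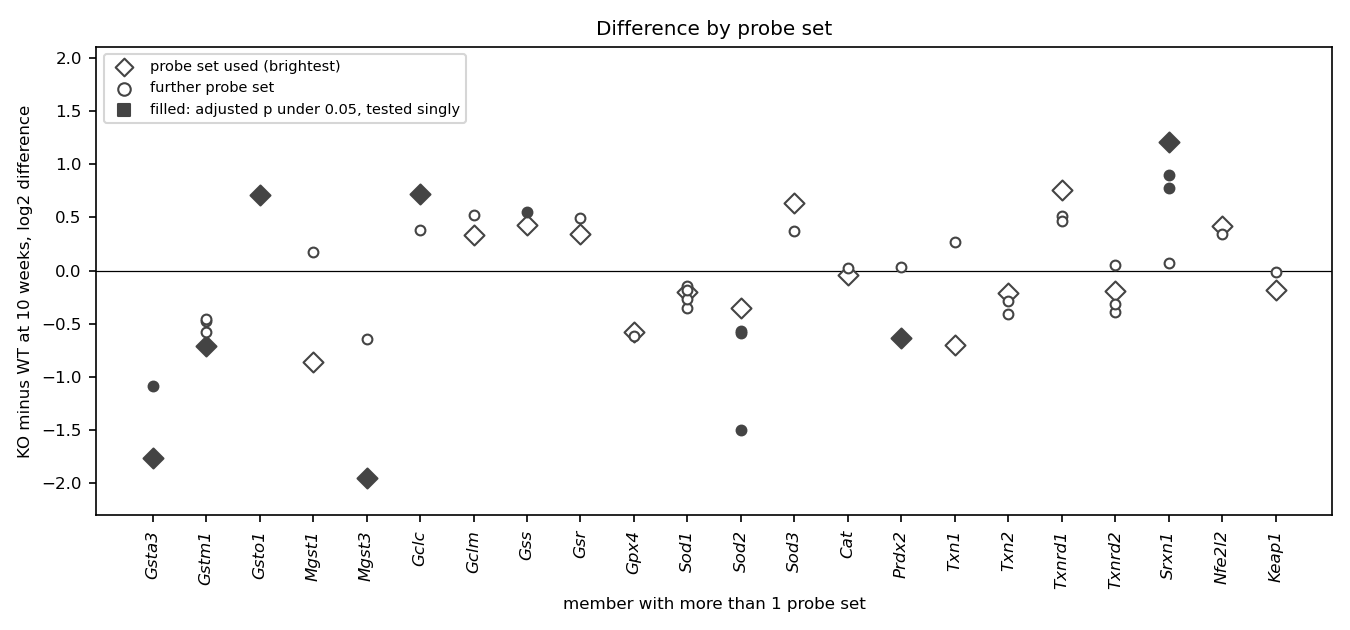
KO minus WT log2 difference at 10 weeks for every probe set of the 22 genes with more than 1; diamonds are the probe sets used (the brightest), circles the 35 others, and filled symbols have an adjusted p under 0.05 when each probe set is tested singly. The probe sets of Sod2 spread from -1.50 to -0.36 with the 3 further ones filled, and those of Prdx2 lie at -0.63 and 0.034.

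Both measured peroxiredoxins fell at 10 weeks. Prdx3, the mitochondrial peroxiredoxin, read 11.15 and 11.21 in WT and 10.52 and 10.66 in KO, against 11.01 to 11.32 at 4 weeks, and fell by 0.59 ± 0.13 (adjusted p = 0.0207). It missed the threshold without 10-week KO replicate 1 (-0.51, adjusted p = 0.128) or 2 (-0.66, 0.0561). Prdx2, of the cytosol and abundant in red cells, fell by 0.63 ± 0.16 (adjusted p = 0.0292), from 12.22 and 11.84 to 11.54 and 11.25. Without 10-week WT replicate 1 the difference was -0.45 (adjusted p = 0.119) and without 10-week KO replicate 2 -0.49 (0.185). Its dimmer probe set gave 0.034 ± 0.11, the mean of both -0.30 (0.129), and the erythrocyte markers, whose part was not tested, summed to 818 and 482 in 10-week WT and 504 and 294 in KO.

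Prdx1, Prdx5 and Prdx6 were not measured as single genes. All 5 probe sets that name Prdx1, the NRF2-regulated cytosolic peroxiredoxin, name the gene model Gm21399 as well. Those probe sets gave differences of -1.02 to -0.57 at 10 weeks, 4 of the 5 with an adjusted p under 0.05 over all probe sets, and -0.03 to 0.02 at 4 weeks. No probe set named Prdx5 or Prdx6 in the annotation used here.

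In the thioredoxin system 2 of 5 genes rose. Srxn1, sulfiredoxin, which restores over-oxidised peroxiredoxins, read 7.42 and 7.81 in 10-week WT and 8.62 and 9.03 in 10-week KO. At 4 weeks it read 7.26 and 7.35 in WT and 7.90 and 7.75 in KO. The 10-week KO hearts were the highest of all, and the 4-week KO hearts were above the 4-week WT hearts without overlap, as in 19.4% of all genes.

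The rise of Srxn1 was 1.21 ± 0.18 (adjusted p = 0.00235) at 10 weeks, or 2.32-fold. At 4 weeks the difference was 0.52 ± 0.18, the only one of the 35 with an unadjusted p under 0.05 (0.0148), and it did not pass over all genes (adjusted p = 0.999). Of its 3 dimmer probe sets, those at 0.78 ± 0.16 and 0.89 ± 0.18 also passed singly at 10 weeks and the third gave 0.069 ± 0.14; the mean of all 4 was 0.74 (adjusted p = 0.0109).

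Txnrd1, the cytosolic thioredoxin reductase, read 7.11 and 7.78 in 10-week WT and 8.06 and 8.35 in 10-week KO, and 7.49 and 7.59 (WT) and 7.75 and 7.87 (KO) at 4 weeks. The rise was 0.76 ± 0.21 (adjusted p = 0.0419). It leaned on 10-week WT replicate 1, the lowest heart, without which it was 0.42 (adjusted p = 0.153), and missed the threshold without 10-week KO replicate 1 (0.90, 0.0836) or 2 (0.61, 0.235). Its 2 dimmer probe sets gave 0.51 ± 0.17 and 0.46 ± 0.15 and did not pass (adjusted p = 0.105 and 0.0997 over all probe sets).

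Txn1, cytosolic thioredoxin, was at -0.70 ± 0.20 (adjusted p = 0.0559), just outside the threshold, and its dimmer probe set at 0.27 ± 0.17. Txn1 passed with the filter at mean log2 of 6 and with the replicate number as a block. Neither gene of the mitochondrial pair passed. Txn2 was at -0.21 ± 0.18 (95% interval -0.61 to 0.19) and its reductase Txnrd2 at -0.19 ± 0.13 (-0.49 to 0.11).

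Nqo1, a quinone reductase and a classical NRF2 target, rose at 10 weeks. It read 7.38 and 7.08 in WT and 7.81 and 7.85 in KO, with 7.20 to 7.40 in the 4-week hearts, so both 10-week KO hearts were above all 6 others. The rise was 0.60 ± 0.14 (adjusted p = 0.0207), and 0.46 without 10-week WT replicate 2 (adjusted p = 0.0584). Without 10-week KO replicate 1 or 2 it was 0.62 (0.0875) or 0.58 (0.101). Nfe2l2 itself read 9.14 and 9.30 in 10-week WT and 9.48 and 9.80 in KO (0.42 ± 0.15, adjusted p = 0.118). It passed with repeat quantile normalization. Keap1 was at -0.18 ± 0.15 at both ages (adjusted p = 0.528 at 10 weeks).

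Further genes of these pathways, from lists that hold none of the 38, went both ways at 10 weeks. Of 82 measured, 9 rose and 14 fell, 28% against 12.1% of all genes, and at 4 weeks 0 passed. These lists too were chosen with earlier results of these data known. The count of 23 was 14 without 10-week KO replicate 1. In limma 5 of the 82 had an unadjusted p under 0.05 at 4 weeks, against 679 of all 18193 genes.

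Of 28 further glutathione genes 2 rose and 6 fell, median -0.07. Chac1 and Chac2, which both break down glutathione, went in opposite directions. Chac1 read 6.46 and 6.42 in 10-week WT and 8.49 and 9.36 in KO (2.49 ± 0.23, adjusted p = 0.000276), and Chac2 fell by 1.93 ± 0.18 (0.00025), from 8.30 and 7.91 in WT to 6.04 and 6.30 in KO. Slc3a2, the heavy chain of the cystine and neutral amino acid transporters, rose by 1.51 ± 0.19 (adjusted p = 0.00123), whereas its cystine-transporting partner Slc7a11 read between 3.44 and 4.24 in every heart and did not pass (0.36 ± 0.18).

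In the thioredoxin and selenoprotein list 2 of 26 rose and 5 fell, median -0.08. Msrb2, the mitochondrial methionine sulfoxide reductase, fell by 1.64 ± 0.17 (adjusted p = 0.000484), from 8.60 and 8.79 to 6.81 and 7.31. Txnl1, a thioredoxin-like protein, fell by 0.85 ± 0.14 (adjusted p = 0.00512), Sesn1, a stress-inducible regulator of growth signalling, by 0.80 ± 0.19 (0.0226) and Selenok, a selenoprotein of the endoplasmic reticulum, by 0.77 ± 0.19 (0.0308). Txnl1 lost its call when its probe sets were averaged (-0.32, adjusted p = 0.0729). Sesn1 lost it with that mean (-0.53, 0.0768) and where probe sets of shared sequence were dropped (-0.61, 0.0626), and Selenok with repeat quantile normalization (-0.65, 0.0996). Both lost it in a fit of the 10-week hearts alone, as did Mafk and Trim21 of the lists that follow. The calls of Sesn1 and Selenok were also lost without either 4-week WT heart or 10-week WT replicate 1, that of Sesn1 also without 10-week KO replicate 1, and that of Selenok also without either 4-week KO heart or 10-week KO replicate 2.

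Among 22 further NRF2 targets 4 rose and 2 fell, median 0.13. Hmox1, heme oxygenase, read 5.97 and 6.41 in 10-week WT and 9.14 and 8.34 in 10-week KO (2.55 ± 0.25, adjusted p = 0.000397). Akr1b8, an aldo-keto reductase, rose by 1.27 ± 0.17 (adjusted p = 0.00179), and Sqstm1, the autophagy adaptor p62 that binds Keap1, by 1.10 ± 0.13 (0.000901). Aox1, aldehyde oxidase, fell by 1.12 ± 0.15 (adjusted p = 0.00176). The difference of Sqstm1 was 0.60 (adjusted p = 0.0306) when its probe sets were averaged, and its call was lost (0.10) where those of shared sequence were left out.

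Of 14 partners and regulators of NRF2 2 rose, 1 fell and 11 did not pass. Besides Sqstm1, which is on this list too, the small Maf protein Mafk, which pairs with NRF2 on DNA, rose by 0.54 ± 0.12 (adjusted p = 0.0182). Trim21, a ubiquitin ligase, fell by 0.61 ± 0.14 (0.022). Mafk lost its call without 10-week WT or KO replicate 1, and Trim21 without those, 10-week KO replicate 2 or either 4-week WT heart. Bach1, a repressor at the same elements, was at -0.23 ± 0.16 (0.476).

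Promoter windows from RefSeq (GRCm38.p6) were searched for the core of the antioxidant response element, TGACNNNGC, on both strands, from 250 bases before to 50 after the gene start. Of the 38 genes 32 were in the table. 9 of these 32 genes (28.1%) held a match in at least 1 window, against 14% of all 27025 genes. They were 2 of the 4 tabled genes that rose (Txnrd1 and Srxn1), 1 of the 10 tabled genes that fell (Gsta3), 5 of the 16 tabled genes that did not pass (Gstm5, Mgst1, Gclm, Sod1 and Nfe2l2) and Prdx1. The windows of Gstk1 and Nqo1 held none, which says only that these letters are not in the window. The following sequences show the 250 bases before the start of a gene that rose with a match, a gene that fell with a match and the gene with the largest fall, and 30 bases around the match of Srxn1, which lies 28 bases after its start; all are on the plus strand, 5′ to 3′, with matches in capitals.
Txnrd1, chr10:82858956-82859205: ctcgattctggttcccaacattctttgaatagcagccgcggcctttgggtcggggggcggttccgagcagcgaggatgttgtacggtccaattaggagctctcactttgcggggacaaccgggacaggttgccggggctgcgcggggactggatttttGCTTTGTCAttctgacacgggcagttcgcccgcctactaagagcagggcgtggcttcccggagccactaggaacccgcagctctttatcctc
Gsta3, chr1:21240335-21240584: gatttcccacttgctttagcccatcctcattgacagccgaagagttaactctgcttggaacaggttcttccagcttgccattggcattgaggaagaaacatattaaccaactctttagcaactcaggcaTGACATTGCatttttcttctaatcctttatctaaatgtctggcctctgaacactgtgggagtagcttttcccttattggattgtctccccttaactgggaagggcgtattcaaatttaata
Gstk1, chr6:42245685-42245934: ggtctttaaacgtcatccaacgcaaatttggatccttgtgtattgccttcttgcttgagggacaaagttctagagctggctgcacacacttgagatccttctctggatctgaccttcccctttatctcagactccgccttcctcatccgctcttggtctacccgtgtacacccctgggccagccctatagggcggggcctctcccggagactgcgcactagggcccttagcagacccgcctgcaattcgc
Srxn1, chr2:152105542-152105571: gcagtgggcaGCTAGGTCAgagtgagacac

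The match of Gsta3 starts 121 bases before the gene start and that of Txnrd1 92 bases before it, the latter on the opposite strand and in 1 of the gene's 3 windows. A match is a description of the letters, and binding was not measured.

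On the brightest probe set the KO minus WT difference changed between the ages in 2 of the 35 genes, against 2.08% of all genes (1.2% lower). That of Gstk1 changed by -2.76 ± 0.25 (adjusted p = 0.00154) and that of Gstp1 by -1.06 ± 0.20 (adjusted p = 0.0356), both toward lower values at 10 weeks. The change of Gstp1 lost its call without any 1 of the 4-week hearts or either 10-week KO heart (adjusted p up to 0.188), or with arrays centred on their medians (0.0567), and that of Gstk1 kept it in every alternative. Mgst3 was at -1.87 ± 0.42 (adjusted p = 0.0625), and Srxn1, the largest rise, at 0.69 ± 0.25 (0.229). The change of Mgst3 passed with the filter at mean log2 of 6, trend and robust eBayes, array weights and the replicate number as a block. That of Gsta3 passed with the block. The Sod2 probe set that fell by 1.50 at 10 weeks changed by -1.23 ± 0.22 (adjusted p = 0.0368 over all probe sets). Among the 82 further genes Hmox1 (2.36 ± 0.36, adjusted p = 0.018), Chac2 (-1.59 ± 0.25, 0.0192), Sqstm1 (1.04 ± 0.18, 0.0277) and Msrb2 (-1.27 ± 0.24, 0.0332) passed. Each of those 4 missed the threshold without either 4-week WT heart or 4-week KO replicate 2, Hmox1, Sqstm1 and Msrb2 without 4-week KO replicate 1, Chac2, Sqstm1 and Msrb2 without 10-week KO replicate 1, and Sqstm1 without 10-week KO replicate 2. Msrb2 also missed it with arrays centred on their medians (0.0632), and Sqstm1 when its probe sets were averaged (0.48, 0.347). Without 10-week WT replicate 2 the count of the 35 was 11.

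Markers of other cells moved in the same comparison. All 5 atrial markers had a positive KO minus WT difference at 4 weeks (median 1.28, 0 called, 5 with an unadjusted p under 0.05 in limma) and a negative change (median -2.14), of which that of Sln, sarcolipin, passed (-4.15 ± 0.68, adjusted p = 0.0211). Their summed intensity was 6361 and 9385 in 4-week WT hearts, 13297 and 28371 in 4-week KO, 16053 and 24337 in 10-week WT, and 23913 and 23522 in 10-week KO. For the change, 3 of 6 fibroblast and 2 of 7 macrophage markers were called higher and 1 of 4 erythrocyte markers lower. Of the 8 cardiomyocyte markers 0 passed, and 5 had an unadjusted p under 0.05 in limma, against 2535 of all 18193 genes. The part of these markers in the changes of Gstk1 and Gstp1 was not tested.

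Between the ages, 6 of the 35 genes had an unadjusted p under 0.05 in WT hearts in limma, against 3285 of all 18193 genes. After adjustment 0 of the 35 passed in WT hearts (0.115% of all genes). In KO hearts 8 passed (10.5% of all genes, 3.42% higher and 7.07% lower). Without 10-week WT replicate 2 the WT count was 5. Gpx3 had the lowest p in WT. It read 9.94 and 10.28 at 4 weeks and 11.22 and 11.14 at 10 weeks in WT (1.07 ± 0.22, adjusted p = 0.122), and 10.22 and 10.93 against 11.30 and 11.17 in KO (0.66 ± 0.22, 0.0892).

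In KO hearts Gstk1 (-2.54 ± 0.18), Mgst3 (-1.60 ± 0.30), Gstp1 (-0.87 ± 0.14), Prdx3 (-0.56 ± 0.13) and Sod2 (-0.48 ± 0.13) were lower at 10 weeks. Srxn1 (1.0 ± 0.18), Gsto1 (0.53 ± 0.13) and Nqo1 (0.53 ± 0.14) were higher, with adjusted p-values from 0.000103 to 0.0449 over the 8. In the same comparison 4 of 7 macrophage and 2 of 6 fibroblast markers were higher and 3 of 8 cardiomyocyte markers lower, and in WT hearts 2 of 6 fibroblast markers were lower at 10 weeks; their part was not tested. The comparison within KO shares the 10-week KO hearts with KO minus WT at that age. The count of 8 was 2 without 4-week KO replicate 2, 3 without 10-week KO replicate 2, 4 without 10-week KO replicate 1 or either 4-week WT heart, and 13 without either 10-week WT heart.

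**Figure D4:**
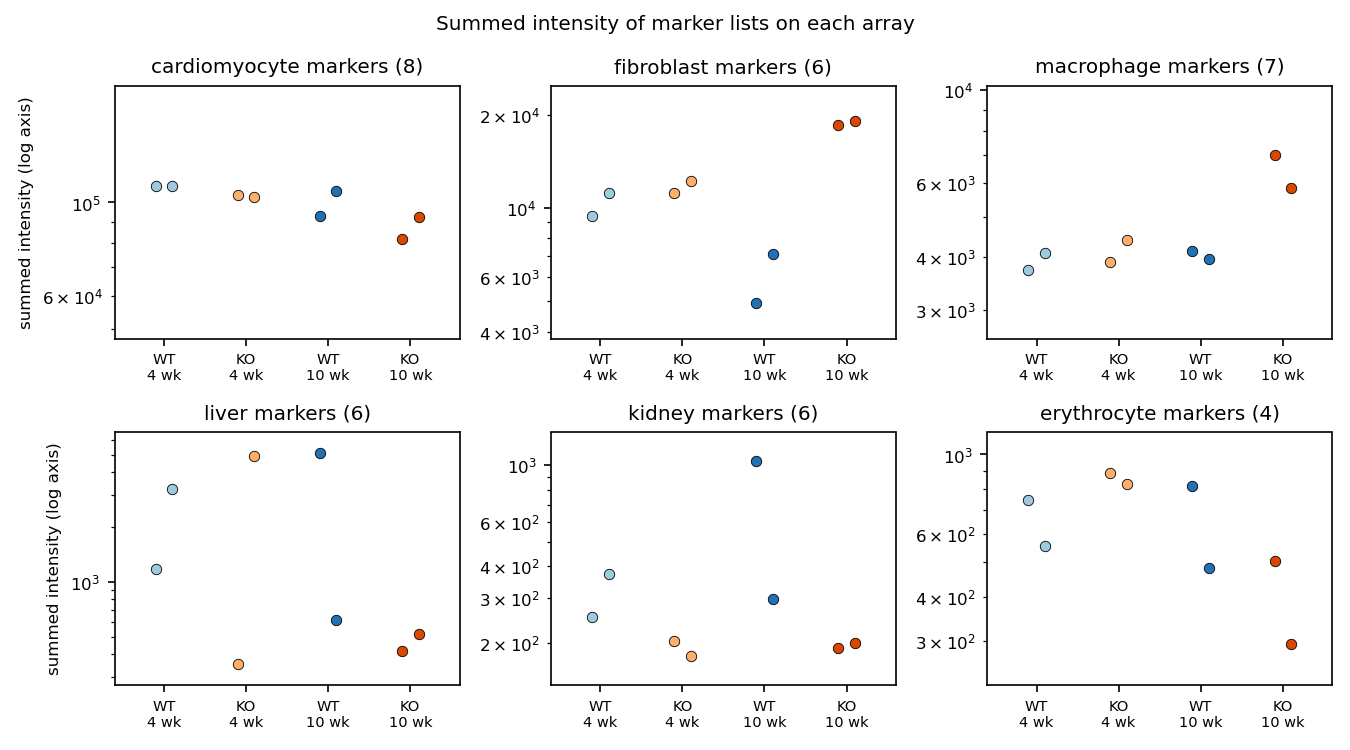
Summed linear intensity of 6 marker lists on each of the 8 arrays (log axis, points; the number of measured markers is in each title). Fibroblast and macrophage sums are highest in the 10-week KO hearts, and 10-week WT replicate 1 has the highest liver (5094) and kidney (1033) sums.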

How the data were processed

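Total RNA of 8 hearts was hybridised to Affymetrix mouse arrays. The deposited values are probe set intensities on a linear scale (array medians 34.3 to 37.4); per the submitters' processing notes, the authors used RMA and GCOS 1.3; RMA equalises the arrays' distributions, so a shift of all genes would not be seen. Log2 was taken here. Of 45101 probe sets 64 controls were left out. Symbols came from the platform annotation, updated by Entrez ID, and 34945 probe sets named 1 gene. The brightest of a gene's probe sets was used. A model with 1 mean per group was fitted in limma 3.58.1 (R 4.3.3; eBayes, 4 residual and 9.33 total degrees of freedom), two-sided, and checked on simulated data. KO was compared with WT at each age, then the change of that difference, then age within genotype. Genes were named by rule: all 38, and of each further list the 4 largest called differences; Slc7a11 and Bach1 and the further Gstm genes were added after their values were seen. The members and lists were chosen with earlier results of these data known. Marker lists also covered atrial, endothelial and adipocyte genes, of which 2 of 5 (1 in each direction), 1 of 5 (higher) and 0 of 3 were called at 10 weeks. Alternatives covered the mean of probe sets, shared sequence, a filter at mean log2 of 6, scaling, the fit and each array left out. Probe sets of shared sequence were taken as those whose identifiers end in _x_at, _s_at or _a_at. Whether they share sequence with other genes or only among transcripts of the same gene was not examined. The deleted gene is not reported here.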

Additional observations from a re-analysis of the deposited data

Results flagged for a closer look

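The KO minus WT difference of Gstk1 was lower at 10 than at 4 weeks by a tested change of -2.76 ± 0.25 on the log2 scale (limma, adjusted p = 0.00154), and both 10-week KO hearts (7.02 and 7.36) lay below all other hearts. The same test gave -1.06 ± 0.20 (adjusted p = 0.0356) for Gstp1, whose 10-week KO hearts read 10.67 and 10.87. Any difference of litter between the ages cannot be told apart from age in either.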

How the results depend on the processing

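The number of members called at 10 weeks was 16 and went from 6 to 16 with 1 array left out, and was 7 with only the 10-week groups in the fit. Of these 16 genes 5 kept their call in every alternative in which they were tested, and none changed sign. For the change between ages the 2 members called became 1 where probe sets that share sequence were dropped or arrays were centred on their medians, and 1 to 11 with 1 array left out. For age, the counts went from 0 to 5 in WT and from 2 to 13 in KO with 1 array left out, against 0 and 8. At 4 weeks the members called were 0 in every alternative. With the replicate number as a block the members called were 18 at 10 weeks, 4 for the change, 2 for age in WT and 13 for age in KO; same-numbered KO and WT hearts deviated together (correlations of 0.30 at 4 weeks and 0.23 at 10 weeks), but with 2 pairs per age and no pairing in the labels the numbers were not treated as pairs. The change of Sqstm1 became -0.086 where probe sets that share sequence were dropped. Other causes of these shifts were not tested. With 2 hearts per group the median SE of a difference was 0.145, so differences well under 1 on the log2 scale could be missed.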
